A study of Drosophila melanogaster with 13 samples.

Results

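The genes followed here encode 8 axon guidance receptors and recognition proteins, robo1, robo2, robo3, fra, unc-5, PlexA, Dscam1 and side, in a single identified cell, the glutamatergic motoneuron MN1-Ib in the ventral nerve cord of the Drosophila melanogaster larva. They were chosen by name and found by their FlyBase identifiers in the count table, where they make up 8 of 17753 genes. All 8 passed the low-count filter and were tested among 8908 genes. RNA came from 13 libraries, each an independent reaction on 4 to 8 cells drawn by patch pipette from 1 or 2 larvae of instar 3. In every library, Control included, the neuron carried the driver MN1-Ib-GAL4 and the membrane-bound reporter UASmCD8:GFP. The genotype was labelled MN1> GFP, Notch RNAi, Shal_RNAi in 3 libraries (Notch+Shal RNAi), MN1> GFP, Shal_RNAi in 3 (Shal RNAi), MN1> GFP, Notch RNAi in 4 (Notch RNAi) and MN1> GFP in 3 (Control). RNA interference was thus directed, in the neuron that the driver marks, at the Kv4-type potassium channel gene Shal, at the receptor gene N (Notch), or at both. The labels name no interference construct in Control, and whether reactions under 1 label came from the same larvae is not stated, so the spread that p-values are set against may be partly technical.

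Growing axons read cues through receptors of a few conserved families. Robo receptors bind the secreted ligand Slit, which repels axons at the midline of the nerve cord, and the sorting protein Commissureless (comm) keeps Robo1 from the growth cone surface. Frazzled, the fly homologue of DCC, mediates attraction to Netrins, and Unc-5 mediates repulsion by them. Plexin A is the receptor of the transmembrane semaphorin Sema1a and acts in the defasciculation of motor axons. Dscam1 is an immunoglobulin-superfamily protein whose alternative splicing yields very many isoforms, through which neurites recognise and avoid their own branches. Sidestep (side) is a substrate-bound ligand that motor axons recognise through the receptor Beaten path Ia (beat-Ia), and its RNA is best known from the muscles and other cells that these axons grow along.

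The libraries held 3783100 to 9319116 gene counts. Values below are normalised CPM, the usual count scaled to library size and adjusted by the TMM factor of the library, unless CPM is named, which is the same value without that factor. A count of 0 in these libraries allows up to 0.322 to 0.793 CPM (3 counts, counting error only). The motoneuron marker VGlut, a vesicular glutamate transporter, was detected in 13 of 13 libraries at 401 to 2841 CPM. Neither RNA interference target was detectably lower in the libraries named for it, with log2 fold changes against Control of -0.05 in Notch+Shal RNAi and 1.72 in Shal RNAi for Shal, and of 0.64 in Notch+Shal RNAi and -0.16 in Notch RNAi for N. Shal stood at 70.3, 30.1 and 21.5 in Notch+Shal RNAi, 93.9, 107 and 218 in Shal RNAi, 54.4, 61.2, 53.8 and 14.8 in Notch RNAi, against 4.71, 84.3 and 36.3 in Control. N stood at 14.9, 16.2 and 345 in Notch+Shal RNAi, 15.9, 28.7 and 2.09 in Shal RNAi, 25.3, 19.1, 20.6 and 209 in Notch RNAi, against 29.1, 25.5 and 183 in Control. Groups are therefore named by label throughout, and each direction below is one between labels. The libraries labelled Shal RNAi 1 and 3 stood apart, with 13.5% and 11.5% of counts from mitochondrially encoded genes, against 0.893% to 5.83% in the other 11, and with TMM factors of 0.568 and 0.620, against 0.935 to 1.41. Genes with a count numbered 7364 to 8212 in Shal RNAi, 8835 to 9272 in Notch+Shal RNAi, 7579 to 9839 in Notch RNAi and 9010 to 9244 in Control. Every library labelled Shal RNAi thus lay below those of Control and Notch+Shal RNAi. The part of this in the differences below was not tested. Markers of other neurons summed to 0.148 to 62.7 CPM. Of these, VGAT had counts in 12 libraries, Gad1 and VAChT in 2 and ChAT in 1. Markers of other tissues were also counted: muscle markers summed to 1095 to 4593 CPM, fat body markers to 1472 to 20329 CPM, hemocyte markers to 70.7 to 1702 CPM and glial markers to 164 to 1036 CPM. Among the glial markers, Gs2 and nrv2 had counts in 13 libraries, with medians of 65.7 and 279 CPM. Eaat1 and moody had counts in 8 libraries, wrapper in 4 and repo in 2, and the astrocyte gene alrm had no count. In such pools, fewer cells of a type and less RNA per cell cannot be told apart.

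**Figure D1:**
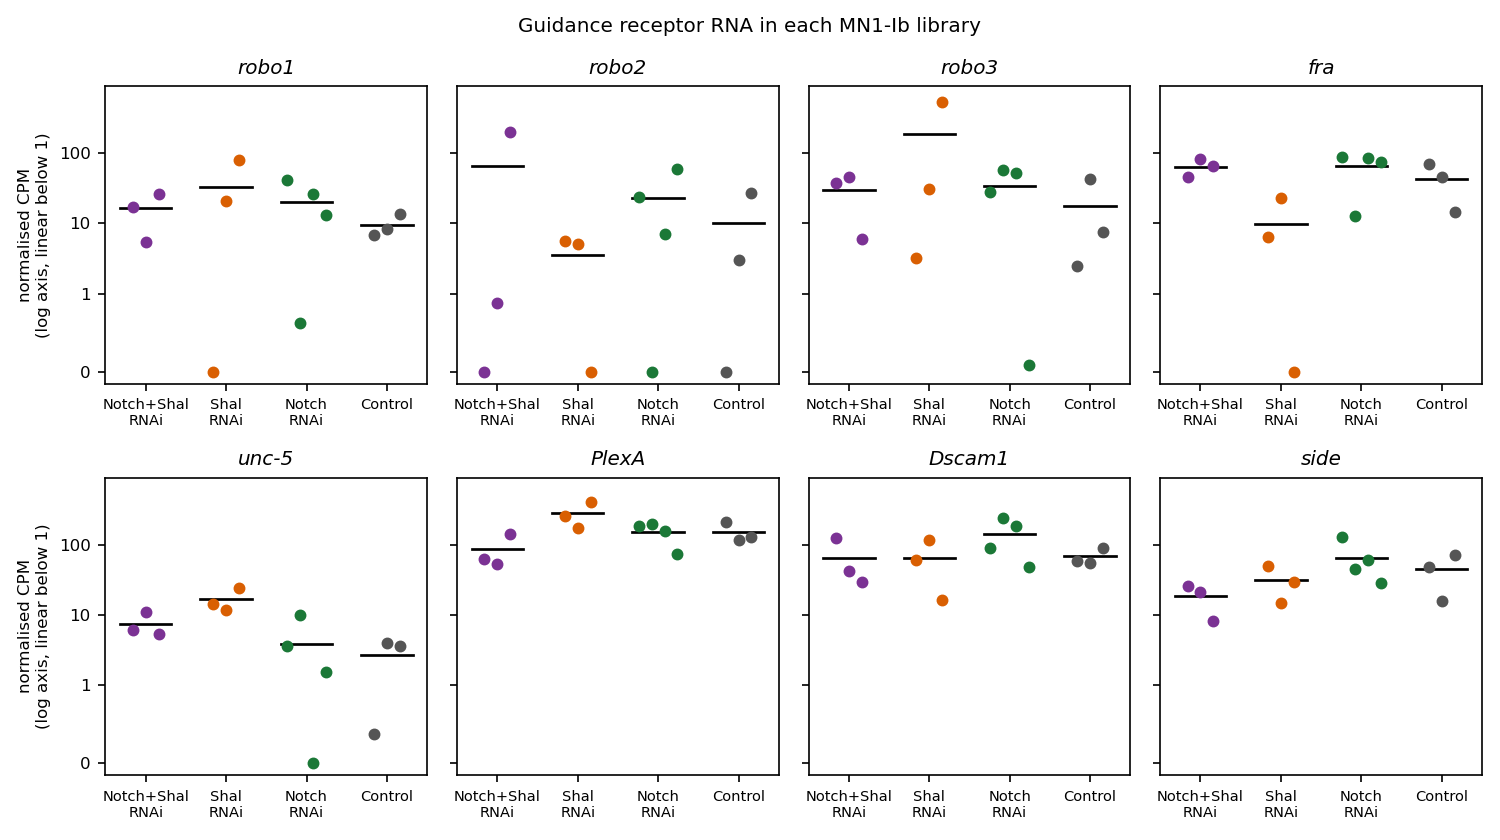
Normalised CPM of each receptor gene in each library (points) with the group mean (black bar), on an axis that is logarithmic above 1 and linear below it, for 3, 3, 4 and 3 libraries in the order Notch+Shal RNAi, Shal RNAi, Notch RNAi and Control. PlexA stays between 53.8 and 410.1 in all 13 libraries, while robo2 and robo3 range from at or near 0 to 199 and 533.

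Per kilobase of exon, PlexA was the most abundant of the 8 RNAs and robo2 the least. The median over 13 libraries was 14.8 normalised CPM per kb for PlexA, 7.19 for fra, 4.32 for robo3, 2.49 for side, 2.30 for Dscam1, 2.00 for robo1, 1.03 for unc-5 and 0.816 for robo2. Neighbours in this order overlapped widely. The upper gene of a neighbouring pair was the higher one in 10 of 13 libraries for PlexA over fra, fra over robo3 and robo1 over unc-5, in 9 for Dscam1 over robo1, in 8 for robo3 over side and for unc-5 over robo2, and in 7 for side over Dscam1. PlexA led all others in 8 libraries and fra in 3, robo2 led in the library labelled Notch+Shal RNAi 3, and robo3 in the library labelled Shal RNAi 3. The place of Dscam1 depends on the length used. All its annotated exons together, many of them mutually exclusive, cover 26496 bases, but its longest annotated transcript has 9145. Over the longest transcript its median was 6.67 per kb, next below fra, though fra was the higher one in only 6 of 13 libraries. With that length for every gene, PlexA led in 6 libraries, Dscam1 in 3, fra in 2, and robo2 and robo3 in 1 each. By CPM in place of normalised CPM, robo1 had 2.71 per kb and stood just below robo3.

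**Figure D2:**
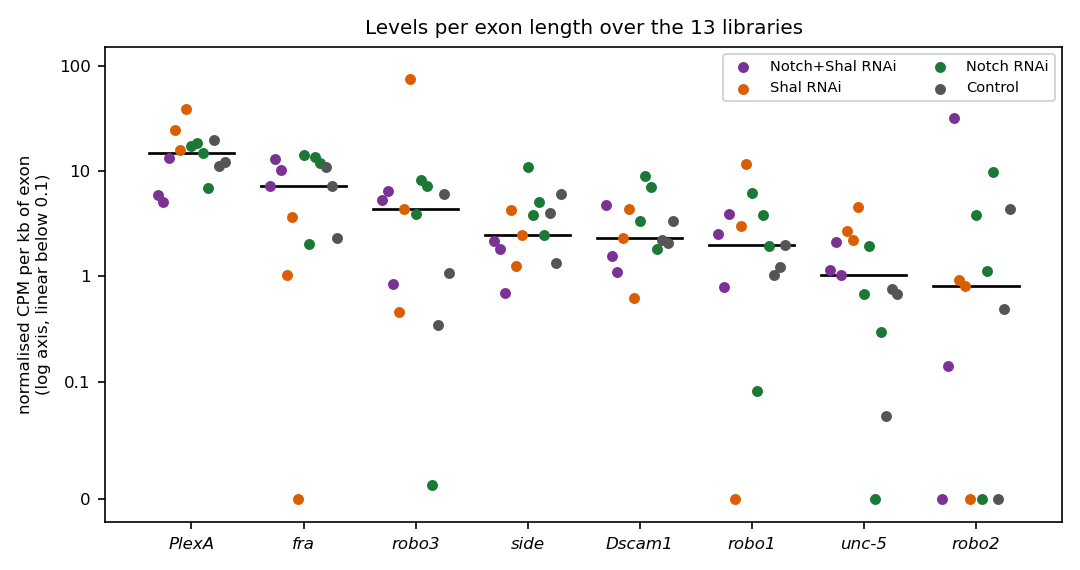
Normalised CPM per kb of exon (axis logarithmic above 0.1, linear below it) of the 8 genes in 13 libraries, coloured by group label, with the median as a black bar, in falling order of the median. The medians run from 14.8 for PlexA to 0.816 for robo2, and the points of neighbouring genes overlap.

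The spread between libraries of 1 label differed between these genes, and was smallest for PlexA. The biological coefficient of variation that edgeR fitted was 0.617 for PlexA, a lower value than that of all but 5.86% of tested genes, and 0.741 for Dscam1, 0.827 for side and 0.949 for fra. It was 1.24 for robo3, 1.25 for robo1 and 1.43 for unc-5, above the median of 1.17 over all tested genes, and 1.85 for robo2, at the percentile of 78.1. These genes also differed in level. By mean normalised CPM, PlexA stood at the percentile of 86.8 of tested genes, Dscam1 at 78.2, robo2 at 50.9 and unc-5 at 23.6. The part of level in the spread was not tested. A count was found in 13 of 13 libraries for PlexA, Dscam1, side and robo3, in 12 for robo1, fra and unc-5, and in 9 for robo2.

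Among the Slit receptors, robo1 (FBgn0005631, chromosome arm 2R, 22692524 to 22700970, minus strand, BDGP6.54, as for all positions here) encodes Robo1, the main repulsive receptor at the midline. Its RNA stood at 17.3, 5.44 and 26.5 in the libraries labelled Notch+Shal RNAi, 0, 20.5 and 78.7 in those labelled Shal RNAi, 41.6, 0.624, 26.1 and 13.1 in those labelled Notch RNAi, and 6.94, 8.29 and 13.6 in Control. The 4 sets overlapped, and the widest was Shal RNAi, which held both the highest library and the 1 library without a count. Group means were 16.4 ± 10.6 in Notch+Shal RNAi, 33.1 ± 40.8 in Shal RNAi, 20.4 ± 17.6 in Notch RNAi, against 9.59 ± 3.50 in Control (SD, n = 3, 3, 4 and 3, as for all means below). Against Control the log2 fold change of robo1 was 0.70 (SE 1.15) in Notch+Shal RNAi, 1.79 (SE 1.14) in Shal RNAi and 1.02 (SE 1.07) in Notch RNAi. None of these passed, and robo1 had the narrowest range in Control.

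The gene robo2 (FBgn0002543, 2L, 1380086 to 1420453, minus strand) encodes Robo2, which sets the lateral position of axon tracts and also acts at the midline. It had 0, 0.877 and 199 in the libraries labelled Notch+Shal RNAi, 5.69, 5.06 and 0 in Shal RNAi, 23.6, 0, 7.05 and 60.1 in Notch RNAi, against 0, 3.05 and 26.9 in Control. Each label thus held 1 library with no count of robo2. The mean of Notch+Shal RNAi, 66.5 ± 114, came from 1 library, with 1183 of the counts, against 10 and 0 counts in the other two. Means were 3.59 ± 3.12 in Shal RNAi, 22.7 ± 26.8 in Notch RNAi, against 9.98 ± 14.7 in Control. Against Shal RNAi, the log2 fold change of robo2 in Notch+Shal RNAi was 4.08 (95% interval 0.40 to 7.75, edgeR unadjusted p = 0.0312, adjusted p = 0.355). Without the library labelled Notch+Shal RNAi 3 it was -2.81.

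The gene robo3 (FBgn0041097, 2L, 1256417 to 1296596, plus strand) lies on the same arm as robo2, and its product also positions axons along the lateral axis. It had 38.1, 46.1 and 6.05 in the libraries labelled Notch+Shal RNAi, 3.25, 30.8 and 533 in Shal RNAi, 27.99, 58.2, 51.5 and 0.0865 in Notch RNAi, against 2.48, 42.8 and 7.59 in Control. The library labelled Shal RNAi 3 stood above all others, with 1789 counts of robo3, and the library labelled Notch RNAi 4 had 1 count. Group means were 30.1 ± 21.2 in Notch+Shal RNAi, 189 ± 298 in Shal RNAi, 34.4 ± 26.3 in Notch RNAi, against 17.6 ± 21.9 in Control. The log2 fold change in Shal RNAi against Control was 3.37 (95% interval 0.64 to 6.11, edgeR unadjusted p = 0.0183, adjusted p = 0.334), and without the library labelled Shal RNAi 3 it was 0.18. Over the 4 groups at once, robo3 had the lowest p of the 8 genes (edgeR unadjusted p = 0.0379, adjusted p = 0.402).

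Of the Netrin receptors, fra (FBgn0011592, 2R, 12529053 to 12564184, plus strand), the gene of Frazzled, had its lowest mean under the Shal RNAi label. It stood at 45.1, 82.0 and 64.8 in the libraries labelled Notch+Shal RNAi, 6.51, 23.1 and 0 in Shal RNAi, 88.7, 12.9, 86.2 and 75.0 in Notch RNAi, against 69.4, 45.4 and 14.6 in Control. The 3 libraries labelled Notch+Shal RNAi all lay above the 3 labelled Shal RNAi, whereas Shal RNAi and Control overlapped through Control 3. Of all tested genes, 7.45% had Notch+Shal RNAi wholly above Shal RNAi. Means were 64.0 ± 18.4 in Notch+Shal RNAi, 9.85 ± 11.9 in Shal RNAi, 65.7 ± 35.7 in Notch RNAi, against 43.2 ± 27.5 in Control. The log2 fold change of fra in Notch+Shal RNAi against Shal RNAi was 2.41 (95% interval 0.38 to 4.44, edgeR unadjusted p = 0.0218, adjusted p = 0.345), and it stayed above 0 with each library left out in turn, at 1.90 to 4.51. In Shal RNAi against Control it was -1.83 (95% interval -3.87 to 0.21, edgeR unadjusted p = 0.0764, adjusted p = 0.471). Mitochondrial share was 0.893% to 4.69% in the libraries labelled Notch+Shal RNAi and 5.36% to 13.5% in those labelled Shal RNAi, and its part in the difference was not tested.

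The gene unc-5 (FBgn0034013, 2R, 15340472 to 15368300, plus strand), the repulsive Netrin receptor, was the second scarcest of the 8 per kb. It had 6.08, 11.05 and 5.37 in the libraries labelled Notch+Shal RNAi, 14.2, 11.6 and 23.8 in Shal RNAi, 3.55, 10.1, 0 and 1.56 in Notch RNAi, against 0.372, 4.00 and 3.58 in Control. All libraries labelled Shal RNAi and all labelled Notch+Shal RNAi lay above the 3 of Control, by CPM as well. By normalised CPM, 6.5% of all tested genes had Shal RNAi wholly above Control, and 2.47% had Notch+Shal RNAi so. Means were 7.50 ± 3.09 in Notch+Shal RNAi, 16.6 ± 6.45 in Shal RNAi, 3.81 ± 4.45 in Notch RNAi, against 2.65 ± 1.98 in Control. The log2 fold change of unc-5 in Shal RNAi against Control was 2.52 (95% interval 0.03 to 5.01, edgeR unadjusted p = 0.0473, adjusted p = 0.419), and 2.07 to 2.94 with each library left out in turn. Its value for Notch+Shal RNAi set against Control was 1.5 (SE 1.22, edgeR unadjusted p = 0.229). The counts behind this are few, 3, 42 and 33 in Control and 35, 87 and 80 in Shal RNAi. The exons of unc-5 share 227 bases with those of Pms2 on the other strand, which had 888 counts in all against 607 of unc-5, and since the strand setting is not known the reads of this stretch may belong to either.

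PlexA (FBgn0025741, chromosome 4, 1009895 to 1027101, minus strand), the gene of the Sema1a receptor Plexin A, had the highest mean of its 4 labels in Shal RNAi. It stood at 62.8, 53.8 and 142 in the libraries labelled Notch+Shal RNAi, 259, 169.7 and 410.1 in Shal RNAi, 184, 196, 157 and 73.9 in Notch RNAi, against 208, 117 and 129 in Control. The 3 libraries labelled Notch+Shal RNAi all lay below the 3 labelled Shal RNAi, and by CPM too, where the highest of Notch+Shal RNAi was 136 and the lowest of Shal RNAi 147. Of all tested genes, 4.24% had Notch+Shal RNAi wholly below Shal RNAi by normalised CPM. Means were 86.3 ± 48.7 in Notch+Shal RNAi, 279.6 ± 122 in Shal RNAi, 153 ± 55.0 in Notch RNAi, against 151 ± 49.3 in Control. The log2 fold change in Notch+Shal RNAi against Shal RNAi was -1.70 (95% interval -3.07 to -0.32, edgeR unadjusted p = 0.0175, adjusted p = 0.337), and -2.24 to -1.35 with each library left out in turn. Against Control, PlexA had log2 fold changes of -0.82 (SE 0.65) in Notch+Shal RNAi and 0.88 (SE 0.65) in Shal RNAi, and in Notch RNAi the interval of -1.24 to 1.25 lay evenly about 0. Scaling bears on this gene, since the group mean in Shal RNAi was 193 ± 55.2 by CPM, nearer to the 173 ± 47.6 of Control.

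Dscam1 (FBgn0033159, 2R, 7317924 to 7381899, minus strand) was counted as 1 gene, so none of its 75 annotated transcripts can be told from another. It had 125, 41.5 and 29.2 in the libraries labelled Notch+Shal RNAi, 61.0, 116 and 16.4 in Shal RNAi, 88.5, 238, 185 and 48.7 in Notch RNAi, against 58.4, 55.5 and 89.6 in Control. Its 2 highest libraries were labelled Notch RNAi, and all groups overlapped. Means were 65.2 ± 52.1 in Notch+Shal RNAi, 64.3 ± 49.7 in Shal RNAi, 140.1 ± 86.9 in Notch RNAi, against 67.8 ± 18.9 in Control. In Notch RNAi against Control the log2 fold change was 1.03 (95% interval -0.47 to 2.54), and in Shal RNAi against Control it was -0.02 (95% interval -1.65 to 1.60). Its antisense neighbour asRNA:CR45129 had 18 counts in all, against 8327 of Dscam1.

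The gene side (FBgn0016061, 3R, 27375088 to 27437482, minus strand), which encodes the Beat-Ia ligand Sidestep, was found in all 13 motoneuron libraries. It stood at 25.7, 21.3 and 8.23 in the libraries labelled Notch+Shal RNAi, 50.01, 14.8 and 29.2 in Shal RNAi, 129, 45.1, 59.6 and 28.7 in Notch RNAi, against 47.3, 15.6 and 70.6 in Control. The 3 libraries labelled Notch+Shal RNAi all lay below the 4 labelled Notch RNAi, by CPM as well, while they overlapped those of Control. Of all tested genes, 0.786% had Notch+Shal RNAi wholly below Notch RNAi by normalised CPM. Means were 18.4 ± 9.08 in Notch+Shal RNAi, 31.3 ± 17.7 in Shal RNAi, 65.5 ± 43.9 in Notch RNAi, against 44.5 ± 27.6 in Control. The log2 fold change in Notch+Shal RNAi against Notch RNAi was -1.79 (95% interval -3.48 to -0.10, edgeR unadjusted p = 0.0391, adjusted p = 0.998), and -2.07 to -1.20 with each library left out in turn. Muscle, where side is also known to be expressed, was represented by markers that summed to 1095 to 1800 CPM in the libraries labelled Notch+Shal RNAi and 1299 to 3456 CPM in those labelled Notch RNAi. All but 1 of its 9 markers, Mhc, had counts in 13 of 13 libraries. The markers entered these sums unevenly, with a median over the 13 libraries of 1004 CPM for Tm1, the highest, and 21.1 CPM for Mhc, the lowest. The part of muscle RNA in the level of side was not tested.

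In Shal RNAi against Control, a comparison that asks which transcripts differ when the A-type channel gene is targeted, 4 of the 8 receptors lay above 0, as did 42.8% of all genes, with robo3, unc-5 and robo1 highest and fra lowest. None of the 8 passed an adjusted p of 0.05, where edgeR called 0 of 8908 genes (0%), limma voom 0 and DESeq2 309 (3.73% of those it adjusted), and no receptor passed in these either. At an unadjusted p under 0.05, edgeR held 2 receptors, robo3 and unc-5, both higher, against 11.7% of all tested genes in either direction 8.03% in the higher one and 3.72% in the lower one. The median log2 fold change was 0.43 over the receptors and -0.27 over all genes. With TMMwsp factors these medians were 0.69 and -0.02, so values of this comparison are best read against the median of all genes: 5 of 8 receptors lay above it with either scaling. Groups did not overlap for 1 receptor, unc-5, which was higher, as were 6.5% of all genes, and 11.3% were lower. Shal RNA itself was at 93.9 to 218 in the libraries that carry its label, against 4.71 to 84.3 in Control.

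In Notch RNAi against Control all 8 receptors had log2 fold changes above 0, as had 51.3% of all genes, but none differed beyond the spread between libraries. The values ran from 0.01 for PlexA to 1.28 for robo2 (SE 1.34), with a median of 0.73 against 0.03 over all genes. No receptor had an unadjusted p under 0.05 in edgeR, against 4.32% of genes (1.9% higher and 2.42% lower), and edgeR called 0 of 8908 genes (0%), limma voom 0 and DESeq2 32 (0.379%). Leaving out 1 library put PlexA, side or unc-5 below 0, and limma voom gave values below 0 for robo1, robo3, unc-5 and PlexA. No receptor had groups that did not overlap.

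Notch+Shal RNAi against Control gave 5 receptors above 0, where 55.7% of all genes lay, and 3 below, PlexA, Dscam1 and side. The largest value was the 2.68 of robo2 (95% interval -0.18 to 5.53, edgeR unadjusted p = 0.0651), which was -4.21 without the library labelled Notch+Shal RNAi 3. The median was 0.64, against 0.11 over all genes. No receptor passed, and none had an unadjusted p under 0.05, against 4.32% of genes (2.73% higher and 1.59% lower). EdgeR called 0 of 8908 genes (0%), limma voom 0 and DESeq2 24 (0.284%). The groups of unc-5 did not overlap, which held in the higher direction for 2.47% of genes and in the lower one for 3.48%.

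Notch+Shal RNAi against Shal RNAi, the comparison of adding the Notch construct to the Shal one, held the largest single log2 fold change of the 8 genes, with fra and robo2 above 0 and the other 6 receptors below it. The median was -0.82, against 0.38 over all genes, of which 59.8% lay above 0, and -1.06 against 0.15 with TMMwsp factors. At an unadjusted p under 0.05, edgeR held robo2 and fra, higher, and PlexA, lower, against 12.3% of genes in either direction, 5.59% higher and 6.7% lower. No receptor passed after adjustment, and edgeR called 0 of 8908 genes (0%), limma voom 0 and DESeq2 307 (3.64%). The lowest adjusted p that any receptor reached in any tool or setting tried was 0.110, for PlexA here in DESeq2. Groups did not overlap for fra, which was higher, as in 7.45% of genes, nor for PlexA and unc-5, which were lower, as in 4.24% of genes. For unc-5 this did not hold by CPM. All 3 libraries labelled Shal RNAi enter both this comparison and that with Control, so the 2 are not independent.

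In Notch+Shal RNAi against Notch RNAi only robo2 (1.40, SE 1.18) and unc-5 (0.94, SE 1.11) lay above 0, as did 55.8% of all genes, and side, Dscam1 (-1.08, SE 0.74) and PlexA (-0.83, SE 0.62) were the lowest. The median was -0.21, against 0.12 over all genes. At an unadjusted p under 0.05, edgeR held side alone, against 4.87% of genes in either direction and 1.44% in the lower one. No receptor passed, and edgeR called 0 of 8908 genes (0%), limma voom 0 and DESeq2 33 (0.391%). The groups of side did not overlap, as in 0.786% of genes in the lower direction and 1.13% in the higher one.

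The interaction asks whether the response to one construct depends on the other. It was below 0 for 6 receptors and above 0 for robo2 (2.80, SE 2.31) and fra (1.82, SE 1.26), with a median of -1.38 against 0.40 over all genes, of which 58.9% lay above 0. The lowest p values were those of robo3 (-3.46, 95% interval -7.13 to 0.20, edgeR unadjusted p = 0.0628, adjusted p = 0.567) and PlexA (-1.70, 95% interval -3.55 to 0.15, edgeR unadjusted p = 0.0697, adjusted p = 0.583). None had an unadjusted p under 0.05, against 9.16% of genes (4.39% higher and 4.77% lower), and edgeR called 0 of 8908 (0%), limma voom 0 and DESeq2 118 (1.40%). A test of any difference among the 4 groups called 66 genes in edgeR (0.741%), 213 in DESeq2 (5.31% of those it adjusted) and 2 in limma voom (0.0225%), none of them among the 8.

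**Figure D3:**
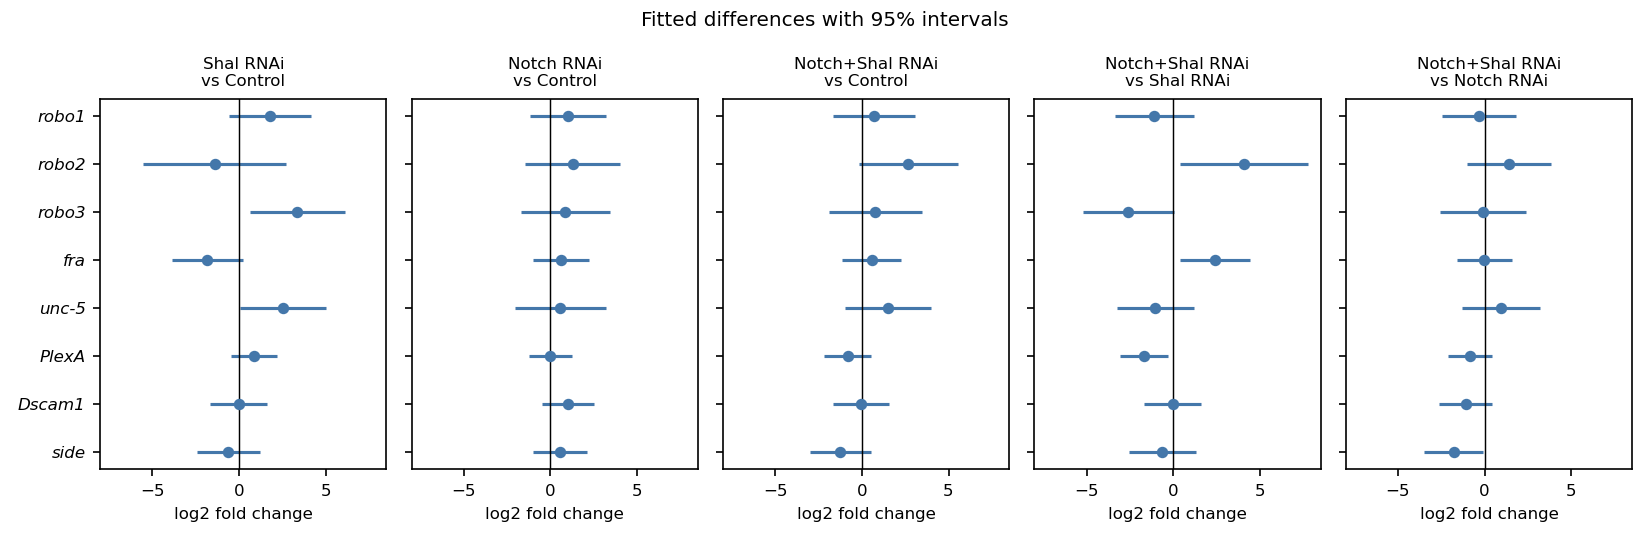
Fitted log2 fold changes of the 8 genes (points) with 95% intervals (lines) from edgeR in 5 comparisons, each with 3 or 4 libraries per label; positive values are higher in the label named first. The intervals that leave out 0 are those of robo3 and unc-5 in Shal RNAi against Control, of robo2, fra and PlexA in Notch+Shal RNAi against Shal RNAi and of side in Notch+Shal RNAi against Notch RNAi, before adjustment over 8908 genes.

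The other genes of these pathways were described from 4 lists, and none of their members passed in any comparison in edgeR or limma voom. In DESeq2, Nrg passed in Shal RNAi against Control (adjusted p = 0.0117) and Nrg and Dscam4 passed in Notch+Shal RNAi against Shal RNAi (adjusted p = 0.0165 and 0.0239), and no other listed gene did. Among 22 tested further receptors and co-receptors, 15 lay above 0 in Shal RNAi against Control (median 0.88), beside 42.8% of all genes. In edgeR 5 had an unadjusted p under 0.05, all higher, namely Nrg, Lar, Dscam4, Fas2 and tutl, beside 8.03% of all genes higher and 3.72% lower. Nrg, the L1-type adhesion protein Neuroglian, stood at 658, 581 and 620 in the libraries labelled Notch+Shal RNAi, 2315, 1169 and 3988 in Shal RNAi, 874, 943, 736 and 378 in Notch RNAi, against 755, 667 and 386 in Control. Its 3 libraries under the Shal RNAi label lay above all others, with a log2 fold change of 2.04 against Control (SE 0.60, edgeR adjusted p = 0.176). Lar, a receptor tyrosine phosphatase of motor axon guidance, had 2.05 in the same comparison (SE 0.72, edgeR adjusted p = 0.261). By CPM, without the low TMM factors of Shal RNAi 1 and 3, the groups lay closer: Nrg averaged 1668 ± 697 CPM in Shal RNAi and 684 ± 177 CPM in Control, and Lar 405 ± 102 CPM in Shal RNAi and 168 ± 17.0 CPM in Control.

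Set against Shal RNAi, the libraries labelled Notch+Shal RNAi had 14 of 22 members of this list below 0 (median -0.67, against 0.38 over all genes), and 6 with an unadjusted p under 0.05, all lower, beside 6.7% of all genes lower and 5.59% higher. They included Nrg (-2.0, SE 0.60, edgeR adjusted p = 0.246) and Dscam4, a Dscam1 paralogue (-5.08, SE 1.34, edgeR adjusted p = 0.208). Dscam4 averaged 3.92 ± 3.97 in Notch+Shal RNAi and 153 ± 216 in Shal RNAi, where 1 library held 400.5 and another 0.407. In Notch RNAi against Control, 18 of the 22 lay above 0 (median 0.44), beside 51.3% of all genes, and kuz, the ADAM metalloprotease Kuzbanian (1.73, SE 0.77), and Fas2, the adhesion protein Fasciclin II (1.44, SE 0.65), had the lowest p values. In Notch+Shal RNAi against Notch RNAi, 18 lay below 0, with a median of -0.63, while 55.8% of all genes lay above it. In Notch+Shal RNAi against Control the list divided 12 above and 10 below 0, close to the 55.7% of all genes above it.

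Guidance ligands were measured in the same libraries, with 11 tested of 12 listed. Sema1a, the ligand of Plexin A and itself able to act as a receptor, was found in 13 libraries at 125 to 849, and had a log2 fold change of -1.44 in Notch+Shal RNAi against Shal RNAi (SE 0.67, edgeR unadjusted p = 0.0402, adjusted p = 0.391), the direction of PlexA there. It was the 1 listed ligand with an unadjusted p under 0.05 in that comparison, beside 12.3% of all genes, 6.7% of them in the lower direction. Of the 11 ligands 5 lay below 0, and 59.8% of all genes lay above it. RNA of sli, which encodes Slit, was found in 12 libraries at up to 43.1, that of NetB in 13 at 0.125 to 61.9, and that of NetA in 2 at up to 6.31. In Shal RNAi against Control, Sema2b, a secreted semaphorin, was the 1 ligand with an unadjusted p under 0.05 (-3.01, SE 1.45, edgeR adjusted p = 0.42), with 3.44 ± 3.18 in Shal RNAi and 33.0 ± 28.2 in Control. Over all genes 11.7% had such a p in that comparison, with 3.72% in the lower direction. No ligand had one in the other 3 pairwise comparisons, beside 4.32% to 4.87% of all genes.

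The beat and side families, 20 tested of 21, hold the partners of Sidestep. Its receptor gene beat-Ia had 153, 68.8 and 39.5 in the libraries labelled Notch+Shal RNAi, 65.1, 194 and 148 in Shal RNAi, 1504, 130.5, 252 and 93.5 in Notch RNAi, against 238, 61.4 and 156 in Control. The library labelled Notch RNAi 1 was the highest for beat-Ia, as it was for side. In Notch+Shal RNAi against Notch RNAi beat-Ia had a log2 fold change of -2.50 (SE 0.85, edgeR unadjusted p = 0.00694, adjusted p = 0.998), and it was the 1 member of 20 with an unadjusted p under 0.05 there, while 10 of 20 lay below 0. Over all genes 4.87% had such a p there, with 1.44% in the lower direction, and 55.8% lay above 0. In Notch RNAi against Control beat-Ia had 1.71 (SE 0.81, edgeR unadjusted p = 0.0465). Elsewhere, beat-VII averaged 220.04 ± 232 in Notch+Shal RNAi and 28.7 ± 23.2 in Shal RNAi (2.87, SE 0.91, edgeR adjusted p = 0.247). In Shal RNAi against Control 3 members of 20 had an unadjusted p under 0.05, beside 11.7% of all genes, 8.03% higher and 3.72% lower. Of the 3 members, beat-IIIc was lower (-3.76, SE 1.49, edgeR adjusted p = 0.334), with 2.57 ± 2.29 in Shal RNAi and 33.0 ± 30.8 in Control, and side-VII and side-III were higher, at 1.94 and 2.07. In Notch+Shal RNAi against Control no member had an unadjusted p under 0.05, beside 4.32% of all genes.

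Of 34 tested intracellular effectors, 20 lay above 0 in Shal RNAi against Control, 27 in Notch RNAi against Control, 28 in Notch+Shal RNAi against Control, 21 in Notch+Shal RNAi against Shal RNAi and 19 in Notch+Shal RNAi against Notch RNAi. The members with an unadjusted p under 0.05 numbered 3, 1, 3, 3 and 1 in that order, all higher. Over all genes the shares above 0 were 42.8%, 51.3%, 55.7%, 59.8% and 55.8%, and the shares higher at that p were 8.03%, 1.9%, 2.73%, 5.59% and 3.44%. They included capt, the actin regulator Capulet, with 2.05 (SE 0.87) in Shal RNAi and 2.02 (SE 0.85) in Notch+Shal RNAi, each against Control, and trio, a guanine nucleotide exchange factor that acts downstream of guidance receptors, with 1.84 (SE 0.71) in Notch RNAi against Control. The Robo1 sorting gene comm was found in 13 libraries at 5.71 to 125.

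Across the 13 libraries, no correlation between 2 of the 8 receptors passed 0.05 after adjustment over 28 pairs. The strongest relation by Pearson's r was that of fra and PlexA, at -0.67 (permutation p = 0.00972, adjusted 0.272; Spearman's rho -0.46, permutation p = 0.12, adjusted 0.787). It rested on the libraries labelled Shal RNAi 1 and 3, without which r was -0.27, and within labels r was -0.44. By rank, fra and unc-5 were the strongest, with rho -0.70 (permutation p = 0.00986, adjusted 0.276) and r -0.60 (permutation p = 0.0379, adjusted 0.531). That r was -0.47 without the same 2 libraries and -0.47 within labels. The 2 Slit receptors robo2 and robo3 had r -0.53 (permutation p = 0.0627, adjusted 0.585), with r -0.53 within labels too.

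Of the 8 genes, robo2 had the highest correlation with N, the Notch receptor gene. The 3 libraries with N at 183 or above, labelled Notch+Shal RNAi 3, Notch RNAi 4 and Control 3, were also the 3 highest for robo2, at 199, 60.1 and 26.9, and they had 6.05, 0.0865 and 7.59 of robo3. On log2 normalised CPM over 13 libraries, r with N was 0.79 for robo2 (rho 0.67) and -0.74 for robo3 (rho -0.64), as a description of libraries that also differ in depth and in other RNA. Those 3 libraries were among the 4 with the lowest summed motoneuron markers, at 2744 CPM in Notch+Shal RNAi 3, 3293 CPM in Notch RNAi 4 and 4528 CPM in Control 3, against a median of 6768 CPM over the 13. Notch+Shal RNAi 3 also had the highest hemocyte and fat body sums, 1702 and 20329 CPM, and Notch RNAi 4 the highest glial sum, 1036 CPM. The same 3 libraries had a count for the most genes, 9272 in Notch+Shal RNAi 3, 9839 in Notch RNAi 4 and 9244 in Control 3. Next came Control 1, with 9160. The part of these differences in the pattern was not tested. Without the 2 libraries farthest from the median of N, r was 0.66 for robo2 and -0.67 for robo3. For the other 6 receptors r lay between -0.40 and 0.56.

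**Figure D4:**
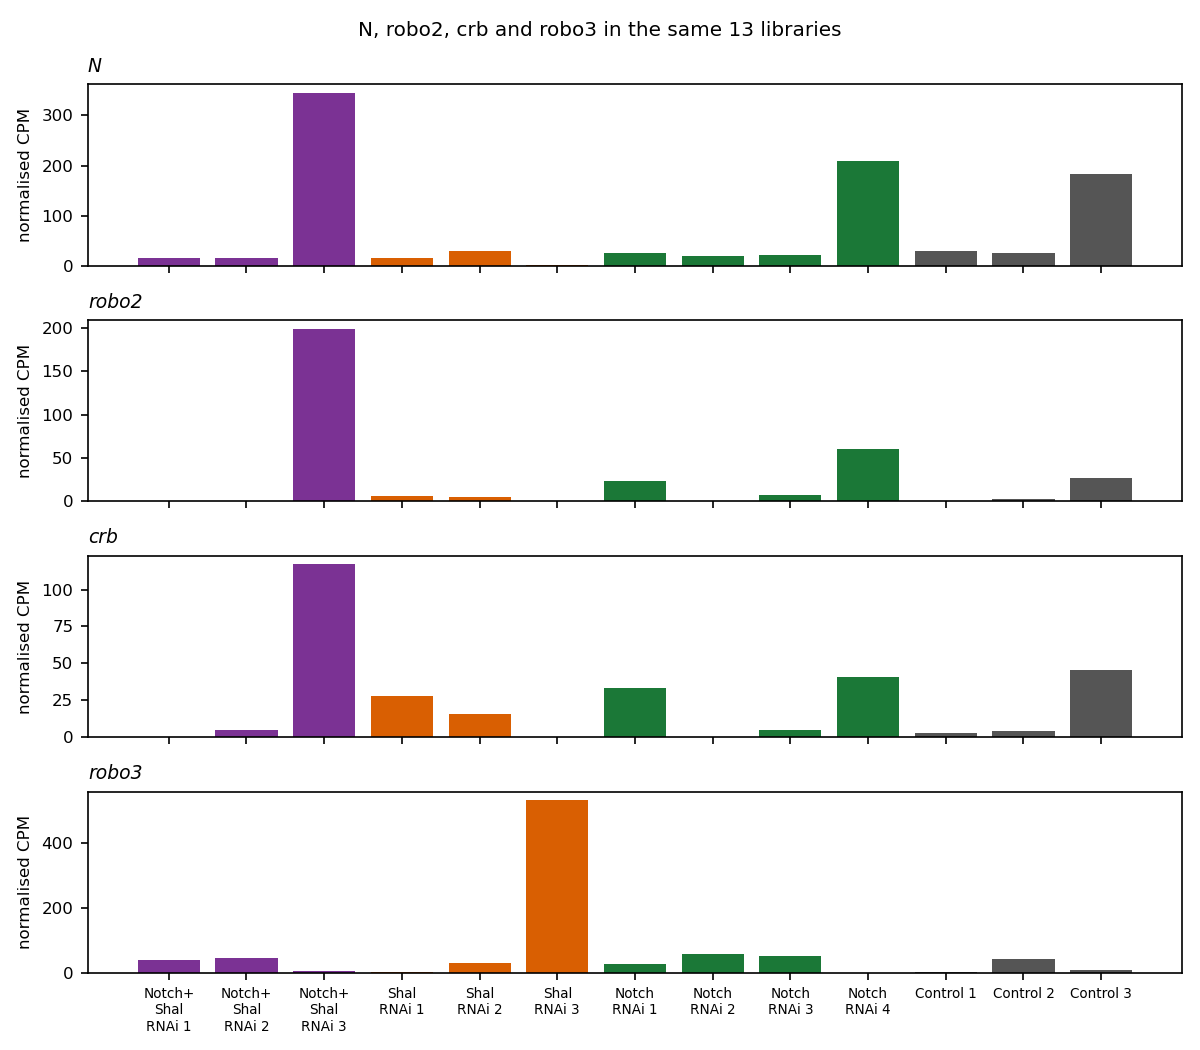
Normalised CPM (linear axes) of N, robo2, crb and robo3 in each of the 13 libraries, coloured by group label. N, robo2 and crb share their 3 highest libraries, Notch+Shal RNAi 3, Notch RNAi 4 and Control 3, and robo3 is highest in Shal RNAi 3.

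For each receptor the 3 most alike of 8908 genes were taken by Pearson's r of log2 normalised CPM over the 13 libraries, as a description with no test. The gene most like robo2 was crb, which encodes the apical polarity protein Crumbs, with r 0.92 and rho 0.96; it had 117 in the library labelled Notch+Shal RNAi 3, 40.7 in Notch RNAi 4 and 45.3 in Control 3. After crb came CG13319 (0.89) and sktl, a phosphatidylinositol phosphate kinase gene (0.88). The closest gene to fra was puf, the deubiquitinase Puffyeye (r 0.96), and the closest to unc-5 was Nmdar1, a subunit gene of the NMDA-type glutamate receptor (r 0.91, rho 0.91). PlexA was closest to the small nucleolar RNA host gene Uhg5 (0.93), robo1 to hng2 (0.93), Dscam1 to CG5021 (0.87), side to Nep3 (0.85) and robo3 to csw, the Corkscrew tyrosine phosphatase gene (0.85). None of the 24 genes so found was another of the 8 receptors.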

How the data were processed

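The authors deposited a table of raw counts per gene and library. According to the labels' protocols, messenger RNA was reverse transcribed with template switching and amplified before paired sequencing of 100 bases. Since the protocols mention no molecular identifier, floors cover counting error only. The submitters' processing notes list STAR 2.7.0e, R 3.6.1, limma 3.40.6, edgeR 3.26.7 and build BDGP6. Their roles, the annotation, how strand was counted and how multiply mapped reads were handled were not given in the sources used here. Symbols and positions were taken from BDGP6.54, which holds 17626 of the 17753 identifiers.

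Counts of all 13 libraries were fitted by label with the quasi-likelihood method of edgeR 4.0.16 (R 4.3.3, robust, TMM factors). Genes were kept by filterByExpr with a count of at least 10 and a total of at least 15, and 2-sided p-values were adjusted by Benjamini and Hochberg over 8908 genes, at 0.05. SE is the size of the log2 fold change over the root of F. DESeq2 1.42.0 and limma 3.58.1 served as alternatives, and the edgeR fit was tested on simulated data. At the dispersions of these libraries it called 0% to 10% of simulated 4-fold changes, depending on the comparison. Of 32-fold changes it called 24% to 52%, so a receptor that did not pass may still differ. Correlations used log2 normalised CPM with a prior count of 2, and those between receptors 100000 permutations. No 2 libraries of a label agreed within sampling noise (chi-square per degree of freedom 128 to 604).

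The receptors, lists and alternatives were chosen with earlier results of these data known. The naming rule took all 8 receptors and, since no listed gene passed in edgeR, the 2 per direction with the lowest p in each list and comparison; those printed mostly had an unadjusted p under 0.05. Fas2, tutl and Dscam4 in Shal RNAi against Control, the levels of ligands, comm, and N with crb were added after values were seen. Figures were drawn with matplotlib 3.10.9.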

Additional observations from a re-analysis of the deposited data

How the results depend on the processing

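None of the 8 receptors passed an adjusted p of 0.05 under any alternative, and the lowest reached was 0.110. Of 952 refitted log2 fold changes 874 kept their direction and 78 did not, and 25 of the 48 kept it under every alternative run. Values with the other sign were, with RLE and TMMwsp factors, 0.011 and 0.22 for Dscam1 in Shal RNAi against Control. With DESeq2 and the legacy quasi-likelihood method, Dscam1 had 0.0058 and 0.028 in Notch+Shal RNAi against Shal RNAi. Fitting only the groups compared gave -0.0014 for PlexA in Notch RNAi against Control.

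With limma voom the values were -0.12 for robo1 in Shal RNAi against Control, and -0.042 (robo1), -0.76 (robo3), -0.16 (unc-5) and -0.066 (PlexA) in Notch RNAi against Control. They were 0.46 (robo1) in Notch+Shal RNAi against Shal RNAi, 0.38 (robo1), -1.39 (robo2), 2.09 (robo3) and 0.35 (fra) against Notch RNAi, and 0.51 (robo1), -1.28 (robo2) and 0.067 (robo3) in the interaction. With sample quality weights they were -1.002 (robo1) in Shal RNAi against Control, -0.018 (robo1) and -1.38 (unc-5) in Notch RNAi against Control, and -1.14 (robo2) and 0.023 (Dscam1) where Notch+Shal RNAi was set against Control. Against Shal RNAi the weights gave 1.58 (robo1), -0.56 (robo2) and 0.49 (Dscam1), against Notch RNAi 0.59 (robo1), -1.96 (robo2), 1.17 (robo3) and 0.18 (fra), and in the interaction 1.60 (robo1), -1.39 (robo2) and 0.17 (unc-5).

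Leaving out each library in turn put 16 log2 fold changes on both sides of 0. The lowest and highest values in Shal RNAi against Control were -0.82 and 0.44 (Dscam1) and -1.98 and 1.16 (robo2). In Notch RNAi against Control they were -0.15 and 0.30 (PlexA), -0.032 and 1.07 (side) and -0.53 and 0.98 (unc-5). Notch+Shal RNAi had -0.93 and 0.28 (Dscam1) and -4.21 and 5.24 (robo2) relative to Control. Relative to Shal RNAi it had -0.90 and 0.79 (Dscam1), -1.66 and 0.20 (robo1), -2.81 and 4.69 (robo2) and -3.22 and 0.59 (robo3). Relative to Notch RNAi it had -0.37 and 0.18 (fra), -0.85 and 0.40 (robo1), -5.50 and 2.73 (robo2) and -0.58 and 0.38 (robo3), and in the interaction -4.10 and 4.13 (robo2). Without both Shal RNAi 1 and 3, which leaves 1 library under that label, assumed to vary like those of the other groups, Dscam1 had 0.79 against Control and side 0.33 in Notch+Shal RNAi against Shal RNAi. Chosen after seeing the data, leaving out the 3 libraries highest in N gave 1.20 (robo2) and 0.27 (Dscam1) in Shal RNAi against Control, -1.59 and 0.56 in the doubly labelled libraries against Control, -2.79 and 0.30 against Shal RNAi, -4.21 (robo2) and 0.11 (fra) against Notch RNAi, and -5.41 (robo2) in the interaction. The cause of these changes was not tested, beyond the smaller number of libraries.

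Among same-numbered libraries 5 of 18 pairs had a correlation of deviations over 0.1 (mean 0.067), against 7 of 45 with different numbers (mean -0.027). Since not every pair exceeded 0.1 and the labels tie no numbers together, they were not read as pairs. With the replicate number as a block no receptor passed, and the direction differed in Dscam1 (0.022, Notch+Shal RNAi against Shal RNAi) and fra (0.089, Notch+Shal RNAi against Notch RNAi).

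Over all genes, where edgeR called 0 in each pairwise comparison and 66 among the 4 groups, Shal RNAi against Control had 26 calls with no low-count filter, 26 with only the groups compared, 25 with quality weights and 0 to 146 with a library left out, the most without Shal RNAi 2. Notch+Shal RNAi against Shal RNAi had 4 with no filter, 16 without the 3 libraries highest in N and 0 to 26 with a library left out. The other pairwise comparisons had at most 2 outside DESeq2, whose counts stand beside each comparison, and the interaction had 9 with the block and 3 without the 3 libraries highest in N. The test among the 4 groups called 122 with TMMwsp factors, 161 with no filter, 16 with quality weights, 2 with limma voom, 1 with the legacy method, 25 with the block, 124 without the 3 libraries highest in N, 0 without Shal RNAi 1 and 3 (again with 1 library under that label), and 5 to 183 with a library left out.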
